A study of Mus musculus with 32 samples.

Results

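Alppl2 and Alpl encode alkaline phosphatases, and both rows were found in each of the 3 deposited expression tables (2 of 24013 genes in the stage table and 2 of 22536 in each knockdown table). The pair was chosen by symbol with the levels of both genes in all stages and both knockdowns already known, so their own levels and differences are given as a description with no test. Polyadenylated RNA was sequenced from 32 mouse samples by a slightly modified Smart-seq2, which copies whole transcripts from tiny inputs. The values are FPKM, fragments scaled to transcript length and sequencing depth, so levels can be compared between genes of unlike length.

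Oocytes at metaphase of the second meiotic division (MII, 2 samples) came from superovulated C57BL/6N females. Every embryo was a cross of a superovulated C57BL/6N female and a DBA/2N male. They were sampled as zygotes (2 samples), at the early 2-cell (2), later 2-cell (2), 4-cell (2) and 8-cell stage (2), and as the inner cell mass (ICM, 3), which was isolated from blastocysts by immunosurgery. Embryonic stem cells (mESC, 2) were of the R1 line, grown with LIF and serum. The stage table holds 1 column per stage, the authors' value over those samples, so a stage level has no SD. The other samples were embryos injected with siRNA and cultured in CZB medium with glutamine: 8-cell embryos with control siRNA (4) or Nr5a2 siRNA (4), and blastocysts with control siRNA (3) or Gata4 siRNA (4), with 1 column per library. Injected embryos are knockdowns and not knockouts, and the labels name neither separate litters nor the number of embryos behind a library. A spread between libraries may therefore be technical, and p-values measure only that spread. In whole embryos, fewer cells of a type and less RNA per cell cannot be told apart.

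Alkaline phosphatases are zinc enzymes that sit on the outside of the cell membrane on a glycosylphosphatidylinositol (GPI) anchor and remove phosphate from small molecules. Alpl, the tissue-nonspecific enzyme, breaks down pyrophosphate during bone mineralization, releases pyridoxal from its phosphate so that vitamin B6 can enter cells, and acts on extracellular nucleotides. Its activity stains primordial germ cells and pluripotent stem cells, while Alppl2 is known as the embryonic, placental-like enzyme and Alpi and Akp3 as intestinal enzymes.

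Alppl2 lies in a cluster with Alpi, Akp3 and the pseudogene Akp-ps1 on chromosome 1, and Alpl stands apart on chromosome 4. The promoter windows below, from RefSeq on build GRCm38.p6, run from 250 bases before to 50 after the annotated start and are shown because the clustered genes share sequence there while their levels in these embryos differ widely. The deposited values were made on mm9, whose coordinates differ. Capitals in the first 3 windows mark every stretch of at least 8 bases held in common by all of them, and capitals in the Alpl window mark GGGCGG, the GC box.
Alppl2 (chr1:87089879-87090178, minus strand): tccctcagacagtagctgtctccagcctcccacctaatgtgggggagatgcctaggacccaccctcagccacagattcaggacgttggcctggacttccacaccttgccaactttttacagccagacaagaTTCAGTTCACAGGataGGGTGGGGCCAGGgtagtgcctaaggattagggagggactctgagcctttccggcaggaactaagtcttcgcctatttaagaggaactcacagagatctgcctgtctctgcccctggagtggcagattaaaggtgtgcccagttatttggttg
Alpi (chr1:87101557-87101856, minus strand): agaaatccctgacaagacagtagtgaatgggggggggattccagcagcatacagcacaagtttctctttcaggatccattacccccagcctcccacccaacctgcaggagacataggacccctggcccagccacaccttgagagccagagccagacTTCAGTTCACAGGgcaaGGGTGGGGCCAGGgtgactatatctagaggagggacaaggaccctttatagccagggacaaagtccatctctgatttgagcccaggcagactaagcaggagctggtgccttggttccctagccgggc
Akp3 (chr1:87124704-87125003, plus strand): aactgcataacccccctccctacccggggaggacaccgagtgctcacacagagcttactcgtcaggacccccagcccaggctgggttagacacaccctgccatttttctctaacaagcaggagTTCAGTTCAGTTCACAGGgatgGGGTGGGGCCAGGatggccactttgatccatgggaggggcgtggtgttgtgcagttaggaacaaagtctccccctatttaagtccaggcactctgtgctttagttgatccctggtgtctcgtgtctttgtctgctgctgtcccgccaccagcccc
Alpl (chr4:137796335-137796634, minus strand): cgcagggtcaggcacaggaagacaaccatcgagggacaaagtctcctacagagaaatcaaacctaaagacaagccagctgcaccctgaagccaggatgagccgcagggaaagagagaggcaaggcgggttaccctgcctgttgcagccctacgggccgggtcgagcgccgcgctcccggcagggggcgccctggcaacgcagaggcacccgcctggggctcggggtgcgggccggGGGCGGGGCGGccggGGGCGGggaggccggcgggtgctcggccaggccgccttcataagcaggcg

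The clustered windows shared 2 runs of 13 bases, TTCAGTTCACAGG and GGGTGGGGCCAGG, which in the Alppl2 window begin 119 and 103 bases before the start. On either strand the first run occurs in 10 of 32851 mouse promoter windows (0.0304%) and the second in 16 (0.0487%). Over the whole window Alppl2 matched Alpi at 66.7% of 258 aligned bases and Akp3 at 61.2% of 276. The Alpl window was richer in G and C (70.0%, with 26 CpG) than that of Alppl2 (53.7%, with 3 CpG). It held 3 copies of GGGCGG, a motif present on either strand in 35.7% of all windows, and the Alppl2 window held none. A second annotated Alpl start (chr4:137766426-137766725, minus strand) had 54.3% G and C with 4 CpG and no GGGCGG. Neither AAGGTCA, a core bound by NR5A2 and related receptors (4.72% of windows), nor GATAA, a core bound by GATA factors (25.4%), was found on either strand in any of these 5 windows. Only these exact letters were searched, and sites that differ from them by a base were not. Such sites do occur. The first Alpl window holds AGGGTCA and the second AAGGCCA and CAGGTCA, each of which differs from AAGGTCA by 1 base. The Alppl2 window holds GATAG, which differs from GATAA by 1 base. These are examples, as such sites were not counted in any window.

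The coding sequences separate the members clearly. Alppl2 (1590 coding bases) was 63.5% identical to Alpl (1575), 81.0% to Alpi and 77.7% to Akp3 in GENCODE M21. The longest stretch that an Alppl2 transcript shared exactly with another of these genes was 51 bases, with Akp-ps1, and that of Alpl was 18 bases, with Alpi. No transcript of another gene matched either coding sequence with 95% or higher identity along 50% or more of its length.

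Alppl2 had the highest FPKM of all genes listed in the 4-cell and 8-cell columns, and Alpl had its highest level in the ICM. In the injected 8-cell libraries described below, the ribosomal precursor RNA Rn45s stood above Alppl2. The level of Alppl2 was 0.836 FPKM in MII oocytes, 1.29 in zygotes, 6.97 in early 2-cell embryos, 446 at the 2-cell stage, 2349.7 at the 4-cell stage, 2557 at the 8-cell stage, 24.9 in the ICM and 1.20 in mESC. In order of level these run from the 8-cell and 4-cell stages through 2-cell, ICM, early 2-cell, zygote and mESC to the oocyte. Which neighbours in that order differ beyond their spread was not tested, as each stage has 1 column. By rank Alppl2 stood at 9226 of 23983 genes in oocytes, at 38 of 24013 in 2-cell embryos, at 1 in both 4-cell and 8-cell embryos, at 2422 in the ICM and at 7967 in mESC. It made up 0.755% of the summed FPKM at the 4-cell stage and 0.762% at the 8-cell stage. Next below it came Dppa3, a maternal factor that protects methylation in the zygote, with 2129 FPKM at the 4-cell stage and 2527 at the 8-cell stage.

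Alpl stayed low through cleavage. Its level was 4.34 FPKM in MII oocytes, 1.68 in zygotes, 4.20 in early 2-cell, 5.50 in 2-cell, 4.65 in 4-cell and 4.27 in 8-cell embryos, 109 in the ICM and 3.84 in mESC. All stages but the ICM thus lay between 1.68 and 5.50 FPKM, and the ICM level ranked 659 of 24013. The intestinal genes were low: Akp3 was highest in oocytes (1.05 FPKM) and at or under 0.334 from the zygote on, and Alpi did not exceed 0.0595 and was listed at 0 from the early 2-cell stage on. Of the summed FPKM of these 4 genes, Alppl2 held 13.3% in oocytes, 98.7% at the 2-cell stage, 99.8% at both the 4-cell and 8-cell stages and 18.6% in the ICM. Alpl held 69.0% in oocytes, 53.3% in zygotes, 81.4% in the ICM and 76.2% in mESC, the largest share in each of those 4 columns. Whether these shares differ beyond their spread was not tested, as each stage has 1 column. In zygotes the lead was small, with Alpl at 1.68 and Alppl2 at 1.29 FPKM.

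**Figure D1:**
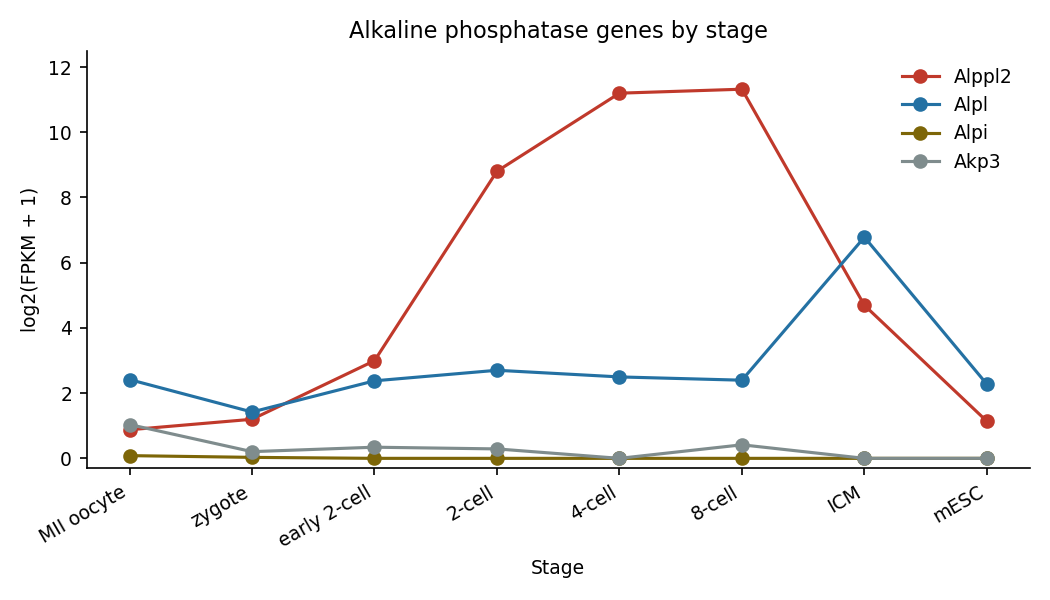
Levels of the 4 alkaline phosphatase genes by stage; the x axis gives the stage and the y axis log2(FPKM + 1), with 1 deposited value per point and no error. Alppl2 climbs to 2557 FPKM at the 8-cell stage and drops to 24.9 in the ICM, where Alpl reaches 109, while Alpi and Akp3 stay near 0.

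A step between successive stages was called where log2(FPKM + 1) differed by at least 1 and the higher stage had at least 5 FPKM. Alppl2 passed this rule at 5 of 7 steps and Alpl at 2. Alppl2 rose 5.38-fold from zygote to early 2-cell, a step at which 1.31% of all genes rose. From early 2-cell to 2-cell it rose 64.0-fold, and 31 of 24013 genes had a larger rise on the log2(FPKM + 1) scale, with 10.5% of genes called higher. It rose 5.27-fold from 2-cell to 4-cell (6.58% of genes called higher) and differed 1.09-fold from 4-cell to 8-cell, which was not called. Between the 8-cell stage and the ICM it fell 103-fold, from 2557 to 24.9 FPKM. Only 7 of 24013 genes had a larger fall at this step, where 6.03% were called lower. From the ICM to mESC it fell a further 20.8-fold, with 10.5% of genes called lower.

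Alpl moved the other way between the 8-cell embryo and the ICM, with a 25.6-fold rise that was exceeded by 77 genes (7.65% of genes called higher). It fell 28.4-fold from the ICM to mESC, where 85 genes fell more. From oocyte to zygote its log2(FPKM + 1) fell by 0.99, just short of the rule. The ratio of Alppl2 to Alpl was 599 at the 8-cell stage and 0.228 in the ICM. The ICM and 8-cell columns differ in tissue as well as in age, because immunosurgery removes the outer cells. In the ICM column 10 of 11 epiblast markers, 16 of 17 primitive endoderm markers and 14 of 17 trophectoderm markers reached 1 FPKM, with summed levels of 1110, 359 and 364 FPKM. At the 8-cell stage the sums were 153, 39.3 and 121. The part of these cell types in the levels of Alppl2 and Alpl was not tested. In mESC 10 of 11 epiblast markers, 2 of 17 primitive endoderm markers and 2 of 9 fibroblast feeder markers reached 1 FPKM. In oocytes none of 10 cumulus markers did, with a summed level of 0.587 FPKM, of which 6 were listed at 0.

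The stage patterns of the members were unlike each other, with Pearson r = 0.07 over the 8 columns of log2(FPKM + 1), a description with no test since the columns share 1 table. Among 9573 genes with at least 5 FPKM somewhere, the named genes most like Alppl2 were Obox6, an oocyte-type homeobox gene (r = 0.996), Ptdss2, a phosphatidylserine synthase (0.994), Lst1 (0.993), Trim43c (0.992) and Mon1a, a vesicle fusion factor (0.992). Obox6 reached 1302 FPKM and Trim43c 395 FPKM at the 8-cell stage, and both belong to multigene families, so their levels are uncertain. Those most like Alpl were Lmo2, a transcriptional adaptor of blood development (0.977), Pmaip1, which promotes apoptosis (0.977), the water channel gene Aqp8 (0.976), the MHC class II gene H2-Eb1 (0.976) and Gsdmd, which forms membrane pores (0.975). Each of these 5 was highest in the ICM, from 6.69 FPKM for Gsdmd to 99.3 for Aqp8. In all, 182 genes had r over 0.95 with Alppl2 and 54 with Alpl. Cops7b, Nppc, Dis3l2, Ecel1 and Prss56, the nearest named genes outside the Alppl2 cluster, stayed at or under 27.8 FPKM at every stage. Rap1gap and Ece1, which flank Alpl, were at 0.690 and 0.0123 FPKM in the ICM. Usp48, beyond Rap1gap, was the highest of the nearest genes around Alpl, at 31.9 FPKM in the ICM and 55.0 at the 8-cell stage.

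Genes that work beside alkaline phosphatases were taken from lists. Of 86 listed genes with at least 5 FPKM somewhere, 3 (3.49%) had r over 0.95 with Alppl2, against 1.90% of all genes, and 1 (1.16%) with Alpl, against 0.564%. They are named here after their values were seen. Pdxk, the kinase that phosphorylates vitamin B6 inside cells once a phosphatase has let it in, had r = 0.984 with Alppl2. Its level was 0.376 FPKM in early 2-cell embryos, 84.7 in 2-cell, 312 in 4-cell and 278 in 8-cell embryos, 9.25 in the ICM and 1.41 in mESC. Entpd2, an ectonucleotidase that cuts extracellular ATP, had r = 0.979 with Alppl2 and peaked at 6.05 FPKM in 8-cell embryos. Slc34a2, a sodium-phosphate cotransporter, had r = 0.954 and peaked earlier, with 107 FPKM at the 2-cell stage and 40.2 at the 8-cell stage. The gene like Alpl was Nt5e, which makes adenosine from extracellular AMP (r = 0.972), with 8.37 FPKM in the ICM and at most 0.179 at every other stage. Pdxp, a phosphatase of vitamin B6, was at most 15.2 FPKM (2-cell).

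Both enzymes need a GPI anchor to stay on the cell surface. Of 29 measured genes of GPI anchor synthesis and attachment, 20 reached 1 FPKM in oocytes, 17 in zygotes, 18 in early 2-cell, 25 in 2-cell, 24 in 4-cell and 26 in 8-cell embryos, 26 in the ICM and 19 in mESC. Over all genes, 8388 (mESC) to 9580 (2-cell) of 24013 reached 1 FPKM. Pigt, a subunit of the transamidase that attaches the anchor, was at 0.209 FPKM in zygotes, 5.47 at the 8-cell stage, 2.95 in the ICM and 0.108 in mESC. Gpaa1, another subunit, was at 0.761 FPKM in zygotes. Both are named after their values were seen. Pigx, a stabilizing subunit of the first mannosyltransferase, was highest at the 8-cell stage with Alppl2 (158 FPKM), whereas Pigp, of the complex that starts the anchor, was highest in the ICM with Alpl (57.2 FPKM). Pigf, needed to add ethanolamine phosphate, was highest in oocytes (505 FPKM) and at 20.4 FPKM in 8-cell embryos. Among other GPI-anchored proteins the folate receptor Folr1 had the level nearest to Alppl2 at the 8-cell stage, 475 FPKM, and 54.6 in the ICM. Tdgf1, a Nodal co-receptor, was highest in the ICM (563 FPKM) as Alpl was. Cd55, a complement inhibitor, fell from 230.0 FPKM in oocytes to 1.79 at the 8-cell stage. In the phosphate list the pyrophosphatase gene Ppa1 peaked in the ICM (196 FPKM) and Phospho2 in early 2-cell embryos (292 FPKM). Of the genes of nucleotide handling with the highest means, Slc29a1, a nucleoside transporter, was highest in the ICM (31.1 FPKM), Enpp3 at the 8-cell stage (16.5), Ada in early 2-cell embryos (25.6) and Enpp5 in zygotes (31.6). Of 24 genes known from alkaline phosphatase-positive pluripotent and germ cells, 23 reached 1 FPKM in mESC, where Alppl2 and Alpl were at 1.20 and 3.84 FPKM. Dppa5a, an RNA-binding protein of stem cells, was at 8963 FPKM in mESC and 12622 in the ICM.

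**Figure D2:**
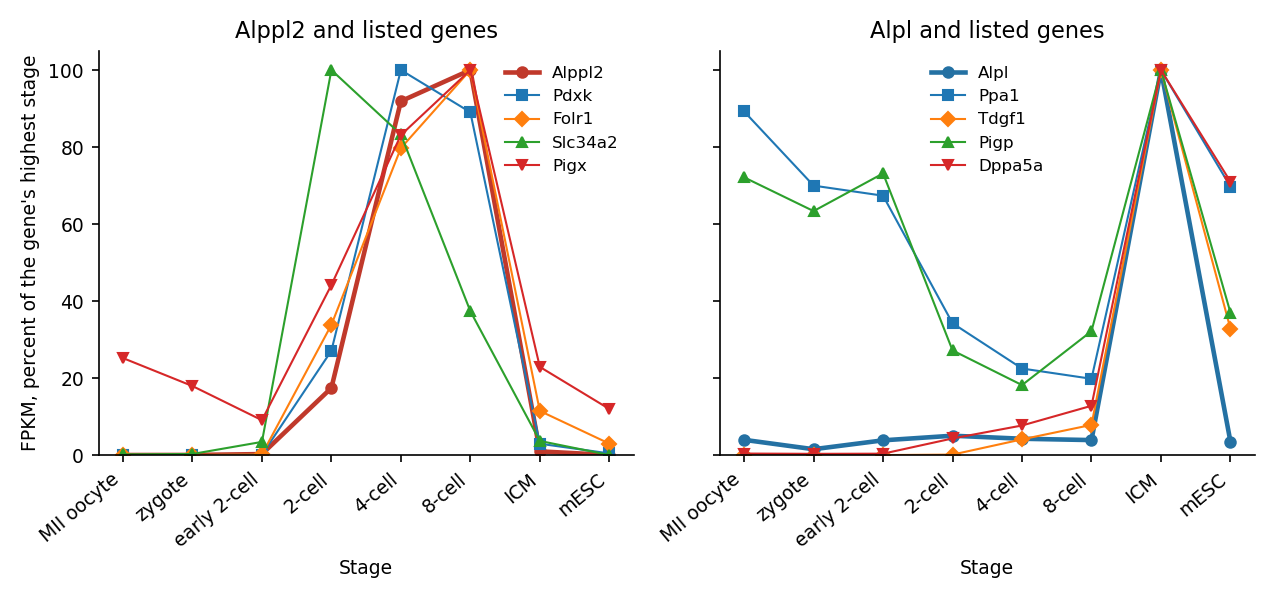
Stage patterns of Alppl2 (left) and Alpl (right) beside listed genes; the x axis gives the stage and the y axis FPKM as a percent of each gene's highest stage, with 1 deposited value per point and no error. Pdxk, Folr1 and Pigx are highest with Alppl2 at the 4-cell and 8-cell stages and Slc34a2 at the 2-cell stage, while Ppa1, Tdgf1, Pigp and Dppa5a peak with Alpl in the ICM. Over all stages r with Alpl was 0.338 for Ppa1, 0.637 for Tdgf1, 0.432 for Pigp and 0.604 for Dppa5a, so only the peak stage is shared closely.

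NR5A2 is an orphan nuclear receptor, and its knockdown asked what depends on it in 8-cell embryos. Control libraries held 23.6, 20.3, 13.1 and 25.2 FPKM of Nr5a2 and knockdown libraries 3.76, 4.25, 6.72 and 6.60, with no overlap. Across stages Nr5a2 was at 3.30 FPKM in early 2-cell, 26.9 in 2-cell, 48.1 in 4-cell and 38.4 in 8-cell embryos and 4.65 in the ICM. Summed FPKM was 285293 to 308689 per library and 7703 to 8370 genes reached 1 FPKM. Read totals were not given, so depth was estimated on the assumption that values under 0.4 FPKM are whole multiples of 1 fragment. By this estimate the deepest 8-cell library was 2.89 times as deep as the shallowest. Of 28 pairs of libraries 22 fitted within 2%, and the pair furthest off missed by 47.7%.

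Alppl2 was lower in every Nr5a2 knockdown library than in any control. Its levels were 3975, 3791, 3164 and 3228 FPKM in the controls (3539.5 ± 405, SD, n = 4) and 1939.8, 2096, 2427 and 2101 FPKM in the knockdowns (2141 ± 205, SD, n = 4). The groups did not overlap. Of 8170 genes with at least 1 FPKM in at least 4 libraries, 3.45% had every knockdown library below every control. The knockdown mean was 60.5% of the control mean, and the difference of mean log2(FPKM + 1) was -0.72 (SE 0.11). Relative to the median of all genes, which was 0.12, it was -0.84, and 5.31% of genes had a lower difference. The groups also did not overlap after median scaling, after quantile normalization or as a percent of summed FPKM without Rn45s (1.21% to 1.46% in controls, 0.720% to 0.880% in knockdowns). Rn45s, the ribosomal precursor RNA, was the only gene above Alppl2 in the controls, where Alppl2 ranked 2 in each library. In the knockdowns it ranked 5, 4, 4 and 3.

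The difference can be set beside other abundant RNAs. Of the 20 genes with the highest control means, leaving out Rn45s, 13 were lower and 7 higher in the knockdown. Besides Alppl2, only Hsp90ab1 and Rpph1 among these 20 lay below all controls in every knockdown library, and Mt1, Mt2 and Pfn1 lay above. With Alppl2, 3 of these 20 abundant RNAs thus lay below, beside 3.45% of all tested genes. Alppl2 was chosen with its values known, and the share of all genes includes RNAs of low level. Whether abundant RNAs were lowered more often was therefore not tested. The share of all genes lying above was not computed. Rpph1 (-1.49 on the log2 scale) and Gm11517 (-1.47) had lower differences than Alppl2. These genes are named after their values were seen. Dppa3, next to Alppl2 in the stage table, was at 1894 ± 284 FPKM in controls and 2510.0 ± 270 in knockdowns (SD, n = 4 each; limma adjusted p = 0.131). Of the epiblast markers, 6 of 11 reached 1 FPKM in controls and 7 in knockdowns, and their summed level was 153 to 286 FPKM in controls and 41.2 to 159 in knockdowns, with Fgf5 at 0. These sums overlapped, and 1 of 6 tested epiblast markers, Tdgf1, was called lower by limma. For trophectoderm the sums were 185 to 276 and 192 to 226 (8 of 17 at 1 FPKM in each group, Elf5 and Aqp8 at 0), and for primitive endoderm 40.6 to 50.8 and 27.4 to 41.3 (6 and 5 of 17, Foxa2 and Hnf4a at 0). Their part in the level of Alppl2 was not tested.

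Alpl was low in the same libraries and its groups overlapped. It was at 2.61, 9.17, 2.19 and 5.18 FPKM in controls (4.79 ± 3.21, SD, n = 4) and at 1.10, 0.733, 3.35 and 3.47 FPKM in knockdowns (2.16 ± 1.45, SD, n = 4). Control 2 was highest and knockdown 2 lowest, and the lowest control lay under 2 of the knockdowns. The difference was -0.84 on the log2(FPKM + 1) scale with SE 0.52, against an SE of 0.11 for Alppl2. It was -0.51 without control 2, and -0.42 with a pseudocount of 5. The spread of Alpl was 67.0% of its mean in controls, against 11.4% for Alppl2. Alppl2 exceeded Alpl 413-fold to 1524-fold in controls and 606-fold to 2862-fold in knockdowns, so the ratio also overlapped. Akp3 was listed at 0 in all 8 libraries. Alpi was at 0.276, 0.0526, 0.715 and 0 FPKM in controls and at 0, 0, 0.0801 and 0 in knockdowns.

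**Figure D3:**
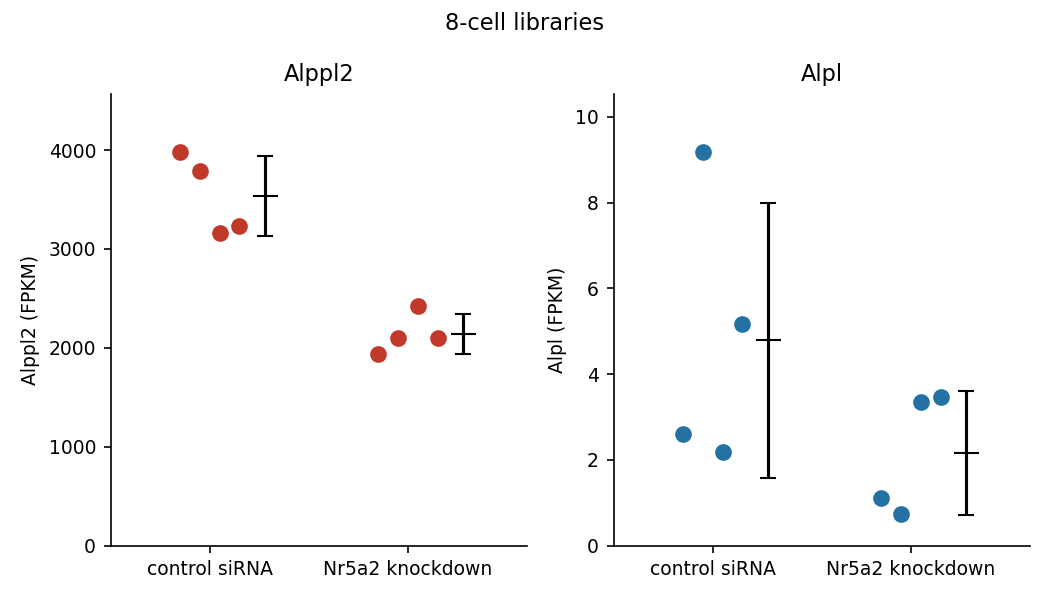
Alppl2 (left) and Alpl (right) in the 8-cell libraries; the x axis gives the group and the y axis FPKM, points are libraries and the bar beside them the mean with SD (n = 4 per group). The 4 knockdown libraries for Alppl2 lie between 1939.8 and 2427 FPKM, below the lowest control at 3164, and the Alpl groups overlap.

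Tests across the whole 8-cell table were made with limma on log2(FPKM + 1), with p-values adjusted by Benjamini-Hochberg over 8170 genes and a threshold of 0.05. By this test 1.57% of genes were higher and 0.698% lower in the knockdown (128 and 57 genes, against 75 and 80 after median scaling and 68 and 71 after quantile normalization). Leaving out 1 library gave from 13 higher and 8 lower (without control 1) to 177 and 108 (without knockdown 3). Of 81 listed genes tested, 2 were higher and 1 lower, and all 3 encode other GPI-anchored proteins, of which 19 were tested (median difference 0.24, against 0.12 for all genes). Leaving out 1 library at a time gave 1 (without control 1 or knockdown 2) to 6 (without knockdown 3) listed genes called, and 5 without control 4. Efna1, an ephrin ligand, rose from 18.1 ± 5.54 to 65.0 ± 27.0 FPKM (SD, n = 4 each; log2 difference 1.75, SE 0.30, limma adjusted p = 0.0186). Ly6a, known as the stem cell antigen Sca-1, rose from 47.4 ± 25.9 to 191 ± 78.9 FPKM (2.11, SE 0.45, limma adjusted p = 0.0404). Efna1 passed in 10 of 14 alternative fits, and its limma adjusted p was 0.0723 without control 1, 0.0583 without control 2 and 0.0507 without knockdown 2. Ly6a passed in 4 of 14, and of the fits that left out a library it passed only in that without control 2 (limma adjusted p = 0.0461), with 0.0525 to 0.0889 in the others. Tdgf1 fell from 58.5 ± 24.1 to 2.16 ± 2.34 FPKM (-4.44, SE 0.46, limma adjusted p = 0.00182). Tdgf1 has near-identical processed copies in the mouse genome, so its level is uncertain, and it also stands among the epiblast markers. Folr1, with r = 0.914 to Alppl2 over stages, was at 434 ± 42.8 FPKM in controls and 375 ± 79.4 in knockdowns (-0.23, SE 0.17, limma adjusted p = 0.473).

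No gene that acts on the same substrates passed in the fit of all libraries as deposited. Pdxk was at 260.0 ± 74.0 FPKM in controls and 313 ± 39.8 in knockdowns (0.30, SE 0.20, limma adjusted p = 0.414), the opposite sign to Alppl2. Entpd2 was at 21.6 ± 8.35 and 8.86 ± 1.27 FPKM (-1.13, SE 0.28, limma adjusted p = 0.0566), and it passed after median scaling (limma adjusted p = 0.0453), after quantile normalization (0.0475) and without control 4 (0.0470). Slc34a2 was at 17.4 ± 3.75 and 32.8 ± 6.06 FPKM (0.88, SE 0.22, limma adjusted p = 0.0587). So the 3 listed genes that resembled Alppl2 over the stages gave differences of both signs here. None of 6 genes of nucleotide handling, 11 of phosphate handling or 26 of GPI anchor synthesis was called in that fit, with median differences of -0.04, -0.06 and 0.06. Of these genes Entpd3, another ectonucleotidase, passed after quantile normalization (lower, limma adjusted p = 0.0479) and Slc29a2, a nucleoside transporter, without knockdown 3 (higher, 0.0291). Pigx, the GPI gene highest at the 8-cell stage, was at 113 ± 13.3 and 132 ± 24.6 FPKM (0.22, SE 0.18, limma adjusted p = 0.520). Of 18 genes known from alkaline phosphatase-positive cells, 14 were lower and 4 higher (median -0.41), and Tdgf1 alone was called in that fit. Klf5 was at 103 ± 79.3 and 21.1 ± 7.88 FPKM (-1.96, SE 0.47, limma adjusted p = 0.0558). It passed without control 4 (limma adjusted p = 0.0338) and without knockdown 3 (0.0467). Dppa5a was at 464 ± 82.1 and 288 ± 103 FPKM (-0.74, SE 0.23, limma adjusted p = 0.119), a difference close to that of Alppl2. It passed only without knockdown 3 (limma adjusted p = 0.0418).

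**Figure D4:**
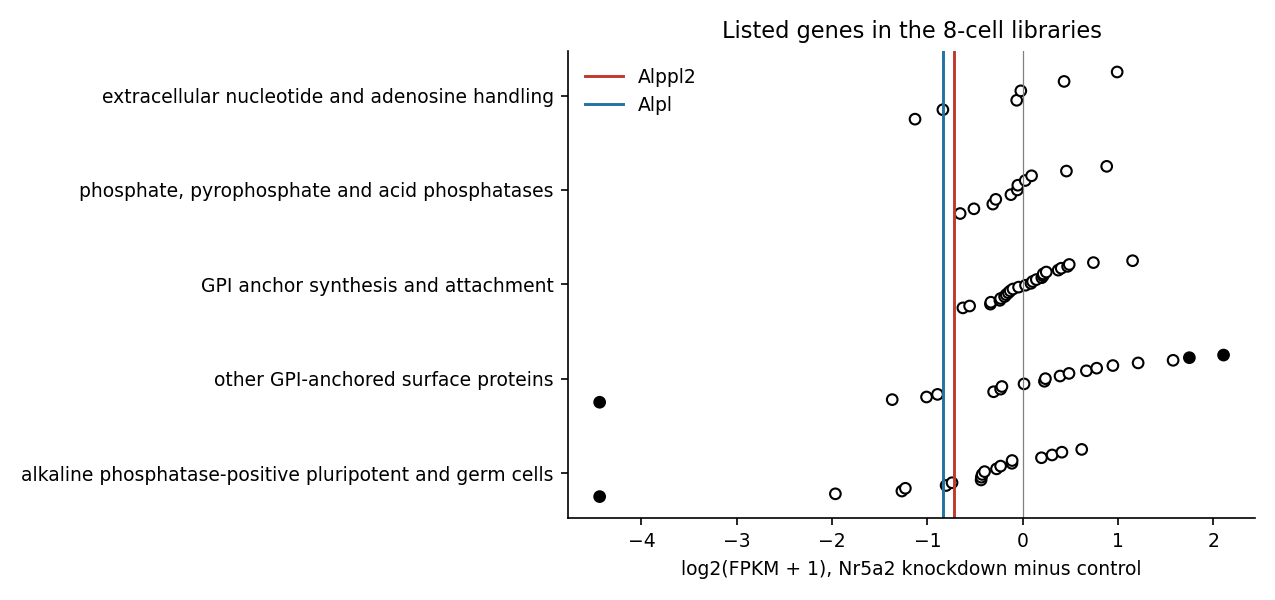
Differences of listed genes in the 8-cell libraries by list; the x axis gives mean log2(FPKM + 1) in Nr5a2 knockdown minus control and the y axis the list, filled points passed limma's test and lines mark Alppl2 and Alpl. The filled points are Efna1 and Ly6a at the right and Tdgf1, which is in 2 lists, at the left; most genes lie to the right of the Alppl2 line at -0.72.

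GATA4 is a transcription factor of the primitive endoderm, and its knockdown was read in whole blastocysts. Controls held 3.18, 0.716 and 5.44 FPKM of Gata4 and knockdowns 0, 0.368, 0 and 0, with no overlap. Across stages Gata4 was at 3.59 FPKM in early 2-cell, 17.6 in 2-cell, 17.7 in 4-cell and 8.04 in 8-cell embryos and 5.44 in the ICM. The libraries were of 2 kinds: Rn45s was at 37959 to 44718 FPKM in control 1, control 3, knockdown 3 and knockdown 4, and listed at 0 in control 2, knockdown 1 and knockdown 2. Summed FPKM was 237292 to 366359. Relative depth, estimated in the same way, spanned 1.59-fold among the libraries with Rn45s and 1.78-fold among those without. With Rn45s 4 of 6 pairs fitted within 2%, and without it 3 of 3.

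Both members were present in every blastocyst library at levels of the same order. Alppl2 was at 29.3, 158 and 187 FPKM in controls (125 ± 83.8, SD, n = 3) and at 113, 42.1, 32.4 and 68.3 FPKM in knockdowns (63.9 ± 36.0, SD, n = 4). The lowest library of all was control 1, so the groups overlapped. Of 8782 genes tested, 2.38% had groups that did not overlap in either direction. The difference was -0.74 on the log2 scale with SE 0.84, smaller than its error. Within the libraries with Rn45s it was -0.65 (SE 1.42, 2 against 2) and within those without -1.18 (SE 1.21, 1 against 2). Without control 1 it was -1.57 and without control 3 -0.26, so 1 library moved it more than 1.5 times in either direction.

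Alpl was at 71.4, 40.6 and 104 FPKM in controls (72.1 ± 31.9, SD, n = 3) and at 95.2, 55.9, 51.7 and 77.9 FPKM in knockdowns (70.2 ± 20.3, SD, n = 4). The lowest and the highest library were both controls, and the difference was 0.02 (SE 0.40). It was -0.44 (SE 0.40) within the libraries with Rn45s and 0.83 (SE 0.66) within those without, and its sign also turned without control 2 (-0.34), knockdown 1 (-0.14) or knockdown 4 (-0.05), under quantile normalization (-0.11) and with the replicate numbers as a block (-0.05). Alppl2 exceeded Alpl in controls 2 and 3 and in knockdown 1, and the ratio of Alppl2 to Alpl was 0.410 to 3.89 in controls and 0.626 to 1.18 in knockdowns. Alpi was at 0.143 FPKM in control 2 and listed at 0 in the other libraries, and Akp3 was listed at 0 in all 7. Side by side, in tables normalized apart, Alpl was at 109 FPKM in the ICM column and 40.6 to 104 in whole blastocysts, and Alppl2 at 24.9 and 29.3 to 187.

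**Figure D5:**
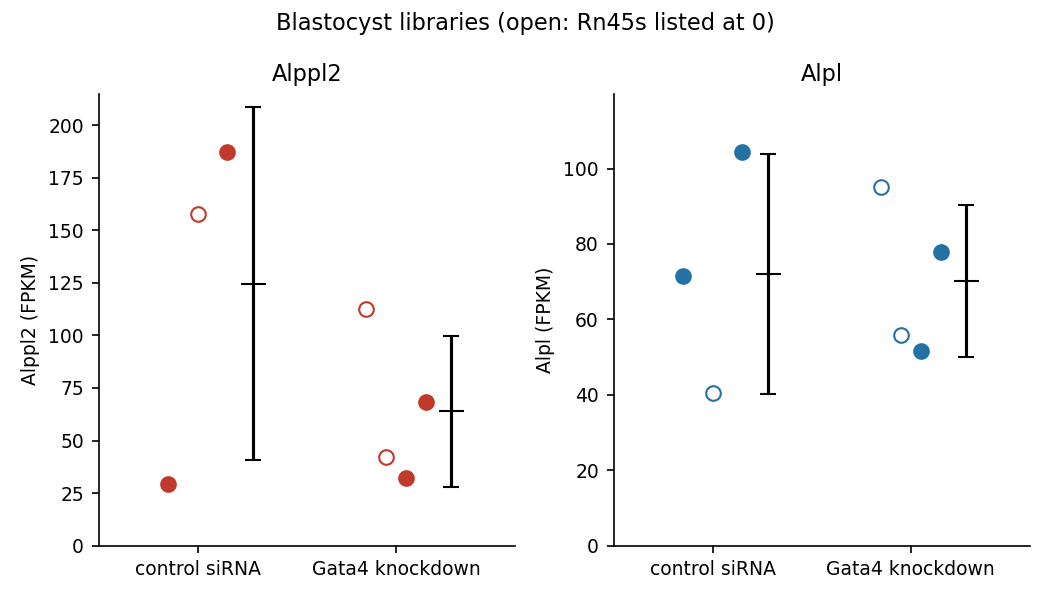
Alppl2 (left) and Alpl (right) in the blastocyst libraries; the x axis gives the group and the y axis FPKM, points are libraries, open where Rn45s is listed at 0, and the bar beside them is the mean with SD (n = 3 controls and 4 knockdowns). Control 1 is the lowest library for Alppl2 at 29.3 FPKM, and for Alpl both the lowest (40.6) and the highest (104) are controls.

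Marker sums in the blastocysts were 3288 to 4830 FPKM in controls and 2652 to 6202 in knockdowns for trophectoderm (17 and 16 of 17 at 1 FPKM, none at 0), 45.3 to 135 and 41.0 to 96.3 for epiblast (8 and 5 of 11, Fgf5 at 0), and 145 to 215 and 97.8 to 224 for primitive endoderm (14 and 7 of 17, with Foxa2 and Srgn at 0 in the knockdowns). The trophectoderm sum was the highest of the 3 in every library. Of 10 tested primitive endoderm markers 7 were lower and 3 higher in the knockdown, with a median difference of -1.07 against -0.02 for all genes. None of the 10 was called, and 7 had an unadjusted limma p under 0.05. The medians were 6.55e-05 for trophectoderm (17 tested) and -0.28 for epiblast (6). The part of cell make-up in Alppl2 and Alpl was not tested. By limma 0.0342% of 8782 genes were called in either direction (0 higher and 3 lower, with 202 at an unadjusted p under 0.05). Leaving out 1 library gave from 0 higher and 1 lower (without control 1) to 2 and 25 (without knockdown 2), with 5 and 19 without control 2. Of 17 trophectoderm markers, Aqp8, which resembled Alpl over the stages, was called lower. None of 79 listed genes was called, while without knockdown 2 Tdgf1 and Plaur were. Pdxk was at 6.96 ± 2.53 FPKM in controls (n = 3) and 9.34 ± 3.13 in knockdowns (n = 4), and Folr1, the most abundant other GPI-anchored protein of the list, at 180 ± 24.1 and 210 ± 77.8 FPKM (SD). Nt5e, which resembled Alpl over the stages, did not exceed 0.176 FPKM in any blastocyst library. List medians were -0.33 for nucleotide handling (7 tested), -0.08 for phosphate handling (13), -0.08 for GPI anchor synthesis (25), -0.28 for other GPI-anchored proteins (15) and 0.01 for alkaline phosphatase-positive cells (17), against -0.02 for all genes.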

How the data were processed

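The authors deposited FPKM values in 1 stage table and 2 knockdown tables. The submitters' processing notes name CASAVA 1.8, STAR 2.4.0 and the build mm9 for each of the 32 samples, and Cufflinks 2.2.1 for 20 of them. The tool behind the FPKM of MII oocytes, early 2-cell embryos and 8-cell knockdown libraries, and how stage replicates became 1 column, are not given in the sources used here. The tables were normalized separately, so tests stayed within a table. The stage table has 30 missing cells, all in oocytes.

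The members and lists were chosen with earlier results of these data known. Each knockdown was compared with its control by limma 3.58.1 (R 4.3.3) with a trend in the prior variance on log2(FPKM + 1), a pseudocount of 1 that understates changes of low genes. A gene entered the fit if it reached 1 FPKM in a number of libraries no smaller than the size of the smaller group, and p-values were adjusted by Benjamini-Hochberg over all of them. SEs of Alppl2 and Alpl come from the same fit without moderation. Of each list, called genes and up to 4 with the highest mean were named, and the 5 genes most like each member over the stages. The vitamin B6 list is not reported here as a whole. Fits were also run on simulated data with independent noise for every gene and library, and the outcome is not reported here. Depth was estimated only as a ratio between libraries, so no counting intervals are given. Transcripts of GENCODE M21 were compared with minimap2 2.31 and Biopython 1.88. Promoter windows are from RefSeq on GRCm38.p6, and all 4 alkaline phosphatase genes matched by symbol. Alternatives were pseudocounts of 0.1 and 5, no filter, 2 scalings, replicate numbers as a block, library type as a covariate and leaving out each library.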

Additional observations from a re-analysis of the deposited data

Results flagged for a closer look

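Of 17 groups of 4 libraries looked at for the genes described, 2 held a library apart from the other 3. In both the other 3 libraries were listed at 0, so any value above 0 stands apart by construction, and the usual chance rate of about 1 in 20 does not apply. Alpi was at 0.0801 FPKM in 8-cell Nr5a2 knockdown 3 only, among the knockdown libraries. Gata4 was at 0.368 FPKM in blastocyst Gata4 knockdown 2 only. No library of Alppl2 or Alpl stood apart in this way in a group of 4, and the 3 blastocyst controls are too few for this check.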

How the results depend on the processing

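The difference of Alppl2 in the Nr5a2 knockdown kept its sign under all 13 alternatives, from -0.84 (median scaling) to -0.64 (quantile normalization), and from -0.78 to -0.66 when each library was left out. For Alpl it ran from -1.16 (pseudocount 0.1) to -0.42 (pseudocount 5), and from -1.07 to -0.51 over left-out libraries. In the Gata4 knockdown the left-out range was -1.57 to -0.26 for Alppl2 and -0.34 to 0.33 for Alpl, and Alpl was at 0.83 within the libraries without Rn45s; the cause was not tested. Listed genes called in the Nr5a2 knockdown numbered 3, against 1 with no filter (more genes tested), 5 with quantile normalization and 1 to 6 over left-out libraries: 1 without control 1 or knockdown 2, 5 without control 4 and 6 without knockdown 3. In the Gata4 knockdown they numbered 0, against 2 without knockdown 2 (Tdgf1 and Plaur, both lower), 1 with the replicate block and 0 under the other alternatives. Scaling moved the split over all genes in the Nr5a2 knockdown from 128 higher and 57 lower to 75 and 80 (median) or 68 and 71 (quantile). Without the filter it was 7 and 4. The correlation of Alppl2 with Alpl over stages was 0.12 with pseudocount 0.1, 0.43 as Spearman rho and 0.0166 without mESC. Called stage steps stayed at 5 for Alppl2, except 4 with pseudocount 5, and at 2 for Alpl.

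Same-numbered libraries deviated together weakly or not at all (r = -0.11 to 0.08 in the Nr5a2 table and -0.10 to 0.28 in the Gata4 table), and the main fits did not pair them. With so few libraries per group this check cannot exclude pairing. In the Gata4 table the highest r was 0.505, between control 3 and knockdown 4, both libraries with Rn45s. With the replicate block the listed genes called were 2 for Nr5a2 and 1 for Gata4 (Dppa3, higher), and all genes called were 37 higher and 18 lower for Nr5a2 and 4 and 14 for Gata4; the block left Alppl2 at -0.72 (SE 0.14) in the Nr5a2 knockdown.

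Each stage has 1 column and each knockdown 3 or 4 libraries per group, and Alpl below about 5 FPKM varied several-fold between replicates.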
